A study of Saccharomyces cerevisiae with 16 samples.

Results

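The budding yeast genome carries full-length Ty retrotransposons, and the longest reading frame of each, the TYA-TYB or Gag-Pol frame, was followed here for 10 copies among the 6697 coding sequences (CDS) counted in the study. These are YLR157C-B, YDR261C-D, YER138C, YML045W, YJR027W, YBL005W-B and YGR027W-B, proposed as Ty1, YDR210C-D, proposed as Ty2, and YGR109W-B and YIL082W-A, proposed as Ty3. They were selected on their measured read counts, because Ty1 frames take the largest share of the ribodepleted reads, so high ribodepleted levels are what chose them and are given only as a description. The CDS table holds 91 Ty frames in all, 44 of them Gag-Pol frames, so 81 Ty frames are not members.

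RNA came from 8 yeast samples, and a polyA and a ribodepleted library were made from each, which gives 16 libraries. 5 samples are wild-type cultures in YPD with 1 stressor each: LiCl, 0.4 M NaCl, 20% glucose, 0.32 µg/ml myriocin, an inhibitor of sphingolipid synthesis, or 0.85 µM fenpropimorph, an inhibitor of ergosterol synthesis. These cultures were re-inoculated every 8 h for 24 h. The LiCl, myriocin and fenpropimorph cultures were chosen near the dose that inhibits growth by 50%, and for NaCl and glucose only the concentration above was sampled. The 6th sample is an RPS22B-GFP strain without the 5′ UTR intron of RPS22B, grown in LiCl. The last 2 are GFP-high and GFP-low cells sorted from an RPS22B-GFP population in LiCl, for which the Methods give 6 h in 4.5 mg/ml LiCl and the labels give 24 h. For the sorted cells, the genotype labels name a TDH3pr-mCherry construct at HO for the ribodepleted libraries only. Every sample of this set was under stress, and an untreated culture was not analysed here.

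The retrotransposon life cycle resembles that of a retrovirus without an extracellular phase. RNA polymerase II transcribes a polyadenylated RNA between the long terminal repeats. Ribosomes translate TYA (Gag), the coat of the virus-like particle, and in some rounds slip into the next frame to make the TYA-TYB fusion, which supplies protease, integrase, reverse transcriptase and RNase H. Inside the particle the RNA is copied into cDNA, and Ty1 and Ty3 insert it near genes transcribed by RNA polymerase III, mainly tRNA genes. Ty1 transcription responds to Ste12 and Tec1 of the filamentation pathway, and Ty3 transcription is induced by mating pheromone.

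The slippage site separates Ty3 from Ty1 and Ty2 by sequence and is shown because it defines the fused frame being counted. Capitals mark the 7-base slippage site known for the family, found by its letters near the base that the annotation skips and read 5′ to 3′ on the coding strand of the R64 reference. The skipped base lies inside the capitals in the 8 Ty1 members, whereas in the Ty3 frames the annotation puts it just before them, 5 bases from the middle base of the site in YGR109W-B and 4 in YIL082W-A.
YLR157C-B, YER138C, YJR027W, YBL005W-B and YGR027W-B: acgaccttcacCTTAGGCcaggaacttact
YDR261C-D, YML045W and YDR210C-D: acgaccttcatCTTAGGCcagaaacttact
YGR109W-B and YIL082W-A: gagcacgtaagGCGAGTTctaaccgatctt
The first window lies at XII:480281-480310 on the minus strand in YLR157C-B, the second at XIII:185752-185781 on the plus strand in YML045W, and the third at VII:708451-708480 on the plus strand in YGR109W-B. Among the 29 Ty1 Gag-Pol frames of the table, 13 have the first window and 14 the second. The site CTTAGGC is in 29 of 29 Ty1 and in 10 of 10 Ty2 frames, so it does not tell those families apart, and GCGAGTT is in both Ty3 frames.

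The label of YDR210C-D does not hold in the annotation. The frame belongs to the element YDRCTy1-2, and its median nucleotide identity was 97.4% to the 28 other Ty1 Gag-Pol frames and 76.8% to the 10 Ty2 frames. It is therefore described as Ty1, which leaves 8 Ty1 members, 2 Ty3 members and no Ty2 member. Medians over "the 7 frames" below leave it out, as its label did.

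In the R64 assembly, 7 of the 8 Ty1 members are 5268 bp long and lie at XII:476333-481601 (YLR157C-B, minus strand), V:443756-449024 (YER138C, minus), XIII:184461-189729 (YML045W, plus), X:472760-478028 (YJR027W, plus), II:221330-226598 (YBL005W-B, plus), VII:536057-541325 (YGR027W-B, plus) and IV:878659-883927 (YDR210C-D, minus). YDR261C-D, at IV:987534-992349 on the minus strand, is 4815 bp long and annotated as part of a mutant element. The Ty3 frames are YGR109W-B at VII:707610-712254, 4644 bp, and YIL082W-A at IX:205635-210132, 4497 bp, both on the plus strand. All are coding exons inside a Ty element, with no annotated intron. A tRNA gene lies 16 bp from the element of YGR109W-B and 18 bp from that of YIL082W-A. For 6 of the Ty1 members the nearest tRNA gene is 122 to 202 bp away, while for YLR157C-B it is 27255 bp and for YJR027W 39429 bp away.

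Copies this alike share reads, which limits what a count of 1 frame means. Of all 100-base windows of a frame, the share found once in the genome was 0% for YER138C and YGR027W-B, 0.611% for YML045W, 0.650% for YDR261C-D, 1.97% for YLR157C-B, 4.62% for YJR027W, 8.66% for YDR210C-D and 14.5% for YBL005W-B. The Ty3 frames stand apart from the Ty1 frames with 56.7% in YGR109W-B and 57.1% in YIL082W-A, and they are 92.7% identical to each other. All 31 Ty frames of the table that lack a unique window had reads in all 16 libraries, so reads that fit several copies were counted. Outside Ty elements, 14 pairs of identical CDS had exactly 2 copies, at least 300 bp and at least 200 reads. In 8 of these pairs the counts of the 2 copies differed by less than the spread expected of reads placed at 1 copy each. Other pairs were far apart, up to 107% for YBL112C and YHR218W-A, 86.8% for YGR296W and YPL283C and 76.9% for YCL067C and YCR039C. All 43 Gag frames that lie inside a Gag-Pol frame also had reads in every library. A Ty1 read may thus have entered the table at more than 1 copy and in both overlapping frames, and the percentages below are shares of counts, not of reads or molecules. The 8 Ty1 members are not 8 independent measurements.

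The check of the strains used the auxotrophic markers and the tagged gene. MET17, needed for methionine synthesis, had 0 or 1 read in the 10 wild-type libraries and 1225 to 40541 in the 6 libraries of the RPS22B-GFP strains. HIS3 and LYS2 were the other way round, with at most 1 and 5 reads in the RPS22B-GFP strains. The deletion strain therefore differs from the wild type in its background too, and the part of the deletion and that of the background cannot be told apart. In bulk RNA, fewer cells with Ty RNA and less Ty RNA per cell cannot be told apart either. Total CDS counts were 29557254 to 50337762 in the polyA and 36377857 to 53234402 in the ribodepleted libraries.

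**Figure D1:**
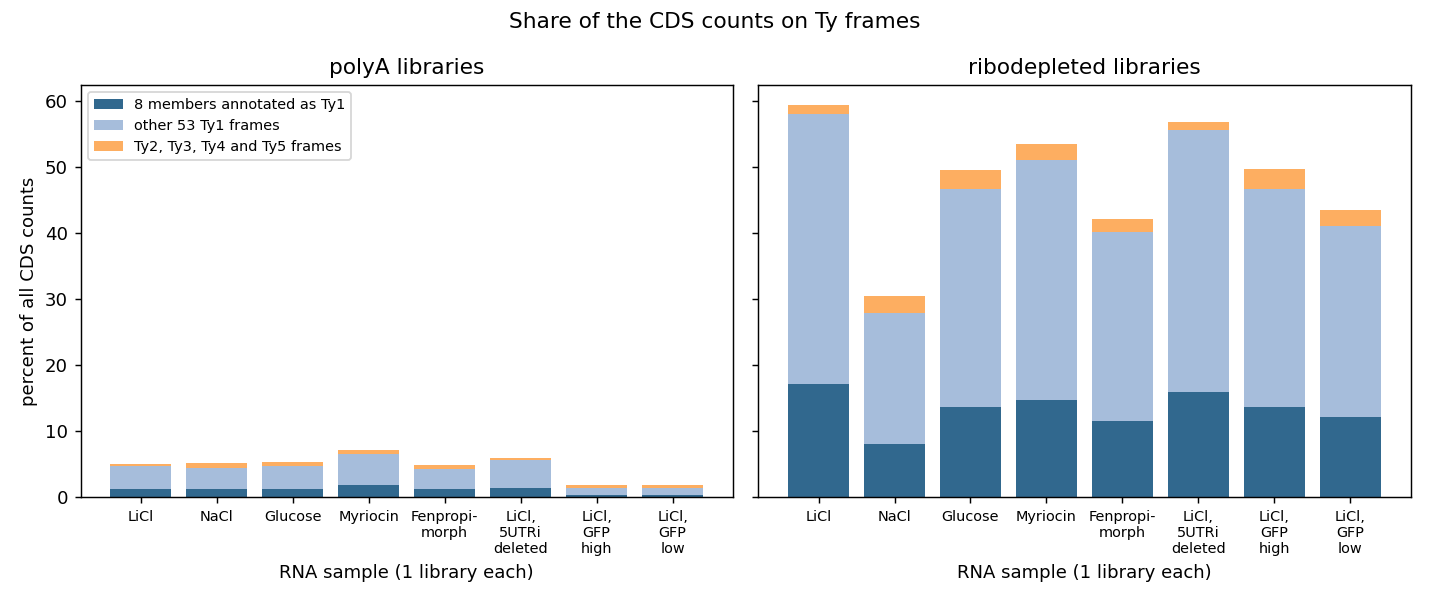
Share of all CDS counts, in percent, taken by Ty frames in each library, stacked as the 8 Ty1 members, the other 53 Ty1 frames and the frames of the other families. The ribodepleted bars stand between 30.4% and 59.4%, the polyA bars between 1.82% and 7.11%.

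Ty frames took a much larger share of the ribodepleted than of the polyA counts in every RNA sample. The 10 members held 0.386 to 1.89% of the polyA and 8.08 to 17.3% of the ribodepleted CDS counts, and nearly all of that was Ty1, since the 2 Ty3 members held 0.0163 to 0.100% of the ribodepleted counts. In 5 of the 8 ribodepleted libraries YLR157C-B had the highest count of all CDS, and in the other 3 it was YDR261C-D. The members are not the 10 highest frames, however. By mean ribodepleted share YLR157C-B (3.22%) and YDR261C-D (3.19%) ranked 1st and 2nd of all CDS, but the non-members YAR009C (2.53%), a separate Pol frame, and YML039W (2.17%), a Gag-Pol frame, came before YDR210C-D (1.59%). The lowest Ty1 member, YBL005W-B (0.679%), ranked 26th, and the Ty3 members YIL082W-A and YGR109W-B ranked 413th and 623rd.

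Levels were compared between frames per length, as RPKM, the count scaled to CDS length and to the TMM library size. Per length, YLR157C-B ranked 6th of all CDS in the ribodepleted and 491st in the polyA LiCl library. The non-members above it in both included 2 Ty1 frames. The Gag frame YLR256W-A had 787 RPKM in polyA and 12320 in ribodepleted libraries, and YAR009C had 436 and 10758. YLR157C-B, 1st by mean ribodepleted share, had polyA levels of 422 RPKM in LiCl, 607 in NaCl, 512 in glucose, 876 in myriocin, 466 in fenpropimorph, 567 in the deletion strain, 98.2 in GFP-high and 82.1 in GFP-low cells. Its ribodepleted levels were 9248 RPKM in LiCl, 3278 in NaCl, 6898 in glucose, 7731 in myriocin, 5008 in fenpropimorph, 8589 in the deletion strain, 5290 in GFP-high and 4366 in GFP-low cells. The polyA library was highest in myriocin and lowest in the sorted cells, whereas the ribodepleted library was highest in LiCl and lowest in NaCl. The counts behind the LiCl values were 113962 and 2235401.

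YDR210C-D, the copy proposed as Ty2, followed the other Ty1 members. Its polyA levels were 174 RPKM in LiCl, 300 in NaCl, 235 in glucose, 367 in myriocin, 210 in fenpropimorph, 211 in the deletion strain, 59.8 in GFP-high and 57.8 in GFP-low cells. In the ribodepleted libraries it was at 4794 RPKM in LiCl, 1511 in NaCl, 3496 in glucose, 3580 in myriocin, 2576 in fenpropimorph, 4103 in the deletion strain, 2550 in GFP-high and 2231 in GFP-low cells. Among the 8 Ty1 members it was 7th by level in the polyA LiCl library and 3rd in the ribodepleted LiCl library.

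The remaining Ty1 members kept a similar pattern at other heights. In polyA libraries the lowest, median and highest levels were 90.7, 520 and 886 RPKM for YDR261C-D, 48.5, 227 and 440 for YER138C, and 75.3, 347 and 587 for YML045W. They were 52.5, 243 and 462 RPKM for YJR027W, 52.7, 170 and 298 for YBL005W-B, and 60.0, 217 and 393 for YGR027W-B. All 8 Ty1 members were highest in myriocin, and both sorted libraries were below the 6 others for each of them.

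In ribodepleted libraries the lowest, median and highest levels were 3731, 6687 and 9942 RPKM for YDR261C-D, 1348, 2500 and 3523 for YER138C, and 1459, 2663 and 4304 for YML045W. They were 1024, 2075 and 2968 RPKM for YJR027W, 707, 1391 and 1764 for YBL005W-B, and 904, 1787 and 2444 for YGR027W-B. NaCl was the lowest of the 8 libraries for every Ty1 member, and LiCl the highest for 6 of them. YJR027W and YGR027W-B were highest in the deletion strain. With 1 library per sample there is no spread between replicates, and neighbours in these orders can be set only against counting error. By that measure none of the 7 neighbouring pairs of any Ty1 member overlapped in ribodepleted libraries, and at most 3 of 7 did in polyA libraries.

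The 2 Ty3 frames were far lower and had another order. YGR109W-B had polyA levels of 22.8 RPKM in LiCl, 29.3 in NaCl, 46.0 in glucose, 21.0 in myriocin, 22.0 in fenpropimorph, 24.6 in the deletion strain, 44.3 in GFP-high and 49.7 in GFP-low cells. Its ribodepleted levels were 29.7, 43.6, 92.8, 19.6, 16.3, 28.0, 41.5 and 42.2 RPKM in the same order of samples. Glucose gave the highest ribodepleted value and fenpropimorph the lowest.

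YIL082W-A, the second Ty3 copy, had polyA levels of 23.1 RPKM in LiCl, 37.9 in NaCl, 49.5 in glucose, 23.7 in myriocin, 23.1 in fenpropimorph, 25.3 in the deletion strain, 47.4 in GFP-high and 49.8 in GFP-low cells. In ribodepleted libraries it was at 34.9, 80.0, 155, 27.8, 17.5, 37.1, 56.1 and 56.3 RPKM in that order. Unlike the Ty1 members, both Ty3 frames were at or near their highest polyA values in the sorted cells. The counting intervals of GFP-high and GFP-low cells overlapped for both Ty3 frames in ribodepleted libraries, and those of glucose and GFP-high cells did so in polyA libraries.

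**Figure D2:**
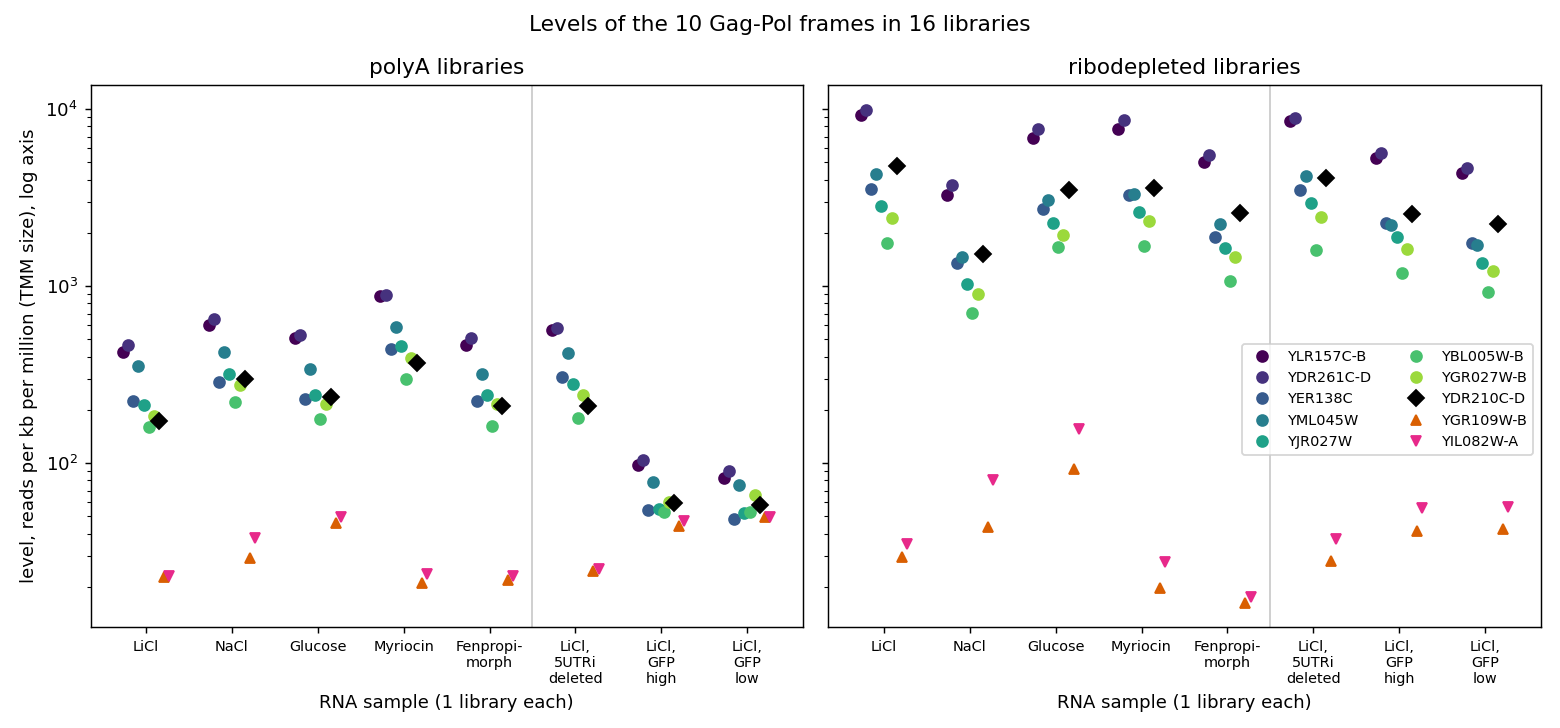
Level of each of the 10 frames (RPKM with TMM library sizes, log axis) in the 8 polyA and the 8 ribodepleted libraries, 1 point per frame and library, wild-type cultures left of the grey line. The sorted polyA libraries lie lowest for the Ty1 frames, NaCl lies lowest among the ribodepleted ones, and the 2 Ty3 frames (triangles) peak in ribodepleted glucose at 92.8 and 155 RPKM.

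The 4 other stressors were then each set against LiCl in the wild type. They share the LiCl library, so each comparison's own values are given. A frame was called apart when its normalized counts differed at least 2-fold, and intervals cover counting error only, with 1 library on each side and hence no test.

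NaCl gave the clearest split between library types. The ribodepleted counts of all 8 Ty1 members were 2.50- to 3.17-fold lower in NaCl than in LiCl, while their polyA counts were somewhat higher, by 0.27 to 0.78 on the log2 scale. In ribodepleted libraries YLR157C-B had 700587 counts in NaCl, a log2 difference of −1.50 (95% counting interval −1.50 to −1.49), and YDR210C-D had 322856 against 1158898, a difference of −1.67 (−1.67 to −1.66). The Ty3 frames went the other way, with YIL082W-A 2.29-fold higher (14594 against 7211 counts, log2 1.19, interval 1.15 to 1.24) and YGR109W-B at 0.55 (0.50 to 0.60). In all, 9 of the 10 members were at least 2-fold apart in ribodepleted libraries, where 43.1% of 6616 genes were. In polyA libraries 0 of 10 were, against 39.5% of 6640 genes. Scaling by the total CDS count left 6 of the 8 Ty1 and 1 of the 2 Ty3 members above 0 in polyA, so the direction there is not firm, whereas all 8 Ty1 members were below 0 in ribodepleted libraries under each scaling tried.

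Glucose set the Ty3 frames apart. For its total RNA, the paper describes the glucose culture as late exponential and the LiCl culture as mid-exponential. Glucose and growth phase therefore cannot be told apart here. YIL082W-A was 4.42-fold higher in glucose than in LiCl in ribodepleted libraries (28098 against 7211 counts, log2 2.15, interval 2.11 to 2.18) and 2.14-fold higher in polyA libraries (log2 1.10, 1.05 to 1.15). YGR109W-B was 3.12-fold and 2.02-fold higher (log2 1.64, 1.60 to 1.68, and 1.01, 0.96 to 1.06). In the ribodepleted comparison YIL082W-A lay at the 97.1 percentile of the genes tested and YGR109W-B at the 93.1 percentile. No Ty1 member was 2-fold apart, with ribodepleted differences of −0.48 to −0.09 and polyA differences of −0.04 to 0.43. The count was thus 2 of 10 in each library type, against 35.3% of genes in ribodepleted and 35.4% in polyA libraries. Under total-count scaling the polyA difference of YGR109W-B was 0.97, short of 2-fold.

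In myriocin, the polyA counts of the Ty1 members were higher than in LiCl and the ribodepleted counts were not. The Gag frames differed less. In polyA, the 31 Ty1 Gag frames had a median of 282 RPKM in myriocin and 217 in LiCl. The 29 Ty1 Gag-Pol frames had 377 and 213. YJR027W was 2.17-fold higher in polyA (103173 against 57544 counts, log2 1.12, interval 1.10 to 1.13), followed by YGR027W-B at 1.09, YDR210C-D at 1.07 and YLR157C-B at 1.05. The other 4 Ty1 members were at 0.74 to 0.96, and the Ty3 frames at −0.12 and 0.04. These 4 of 10 members stand beside 29.7% of all genes, and with total-count scaling 0 of 10 passed 2-fold, though all 8 Ty1 members stayed above 0 (0.40 to 0.78). In ribodepleted libraries the 8 Ty1 members were at −0.42 to −0.06 and the Ty3 frames at −0.60 and −0.33, so 0 of 10 were called against 30.6% of genes.

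Fenpropimorph left the polyA counts close to those of LiCl, with Ty1 members at −0.13 to 0.27 and Ty3 frames at −0.05 and 0.00, and 5 to 7 of the 8 Ty1 members were above 0 depending on the scaling, so no direction is given. In ribodepleted libraries every member was lower. The Ty1 members were at −0.94 to −0.72, YGR109W-B was at −0.87 and YIL082W-A was lowest (3258 against 7211 counts, interval −1.06 to −0.94). None passed the 2-fold line, which YIL082W-A missed only in the digits after rounding. The members' counts of 0 of 10 compare with 25.1% of genes in polyA and 26.3% in ribodepleted libraries.

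**Figure D3:**
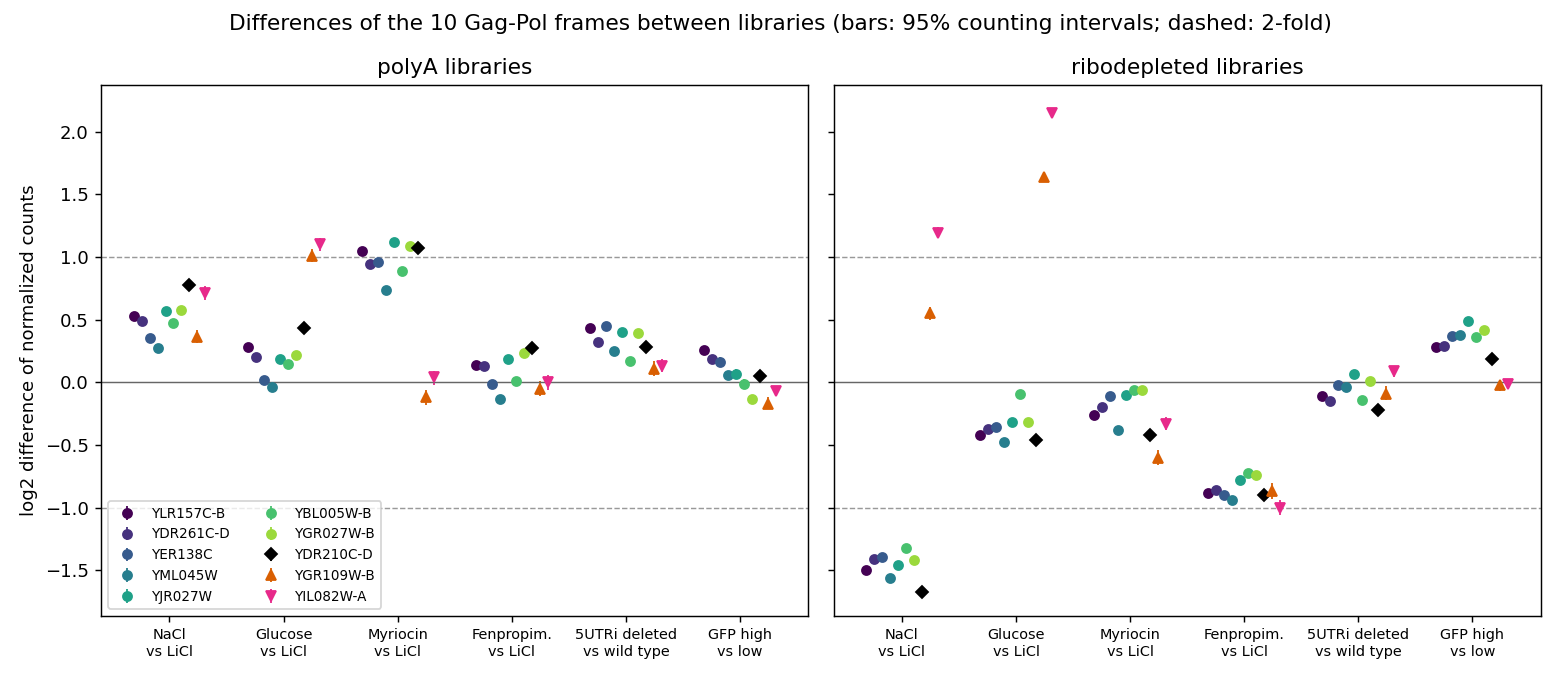
Log2 difference of normalized counts of each frame in the 6 comparisons, polyA libraries on the left and ribodepleted on the right, with bars for 95% counting intervals and dashed lines at 2-fold. In ribodepleted NaCl against LiCl the 8 Ty1 frames lie between −1.67 and −1.32 while the Ty3 frames lie at 0.55 and 1.19, and in glucose the Ty3 frames reach 1.64 and 2.15.

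Within LiCl, the strain without the RPS22B 5′ UTR intron and the wild type differed by less than 2-fold in all 10 members. The polyA differences were 0.17 to 0.45 for the Ty1 members, highest for YER138C (64106 against 60882 counts, interval 0.43 to 0.47, the 89.2 percentile of genes tested), and 0.11 and 0.13 for the Ty3 frames. The ribodepleted differences were −0.22 to 0.07 for Ty1 and −0.09 and 0.09 for Ty3. All 8 Ty1 members were above 0 in polyA under each scaling tried, with YLR157C-B at the 88.3 and YJR027W at the 86.9 percentile. Only 4.05% of genes passed 2-fold in polyA and 3.46% in ribodepleted libraries, so 0 of 10 says little about the members.

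GFP-high and GFP-low cells, sorted by Rps22B level, differed by less than 2-fold in all 10 members. In ribodepleted libraries the Ty1 members were higher in GFP-high cells by 0.19 to 0.49, with YJR027W at the top (470706 against 352564 counts, interval 0.48 to 0.50, the 96.5 percentile of genes tested). The Ty3 frames were at −0.02 and −0.01 there. Under total-count scaling the Ty1 range was 0.04 to 0.34, and the sign of the Ty3 frames changed with the scaling. In polyA libraries the Ty1 members were at −0.13 to 0.26 and the Ty3 frames at −0.17 and −0.07. Only 0.798% of all genes in polyA and 0.726% in ribodepleted libraries were 2-fold apart in this comparison.

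Both libraries of an RNA sample were then set against each other, as a description because ribodepleted counts chose the members. All 8 Ty1 members were at least 2-fold higher in the ribodepleted library in each of the 8 RNA samples, neither Ty3 member was, and 4.59% of 6641 genes were. The excess differed between samples. For YLR157C-B the log2 ratio was 5.38 in LiCl, 3.46 in NaCl, 4.77 in glucose, 4.13 in myriocin, 4.35 in fenpropimorph, 4.85 in the deletion strain, 6.75 in GFP-high and 6.71 in GFP-low cells. NaCl was the lowest and GFP-high the highest sample for each Ty1 member, from 2.70 in YBL005W-B to 6.78 in YDR261C-D.

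Ty3 showed a smaller excess with another order, and its size depended on the scaling. Total-count scaling took the median log2 ratio of the Ty3 frames from 1.19 to 0.12 and that of the 7 frames from 4.29 to 3.10. For YIL082W-A the log2 ratio was 1.52 in LiCl, 2.10 in NaCl, 2.66 in glucose, 1.22 in myriocin, 0.52 in fenpropimorph, 1.48 in the deletion strain, 1.24 in GFP-high and 1.16 in GFP-low cells. For YGR109W-B it ran from 0.49 in fenpropimorph to 2.03 in glucose. The median over samples was 1.36 and 1.01 for these frames, against 4.16 to 5.06 for the Ty1 members and −0.11 over all genes. In the other families it was 2.83 to 3.79 for the 10 Ty2 Gag-Pol frames. For the Ty4 Gag-Pol frames it was 1.37 to 1.69, so a small excess was not particular to Ty3.

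**Figure D4:**
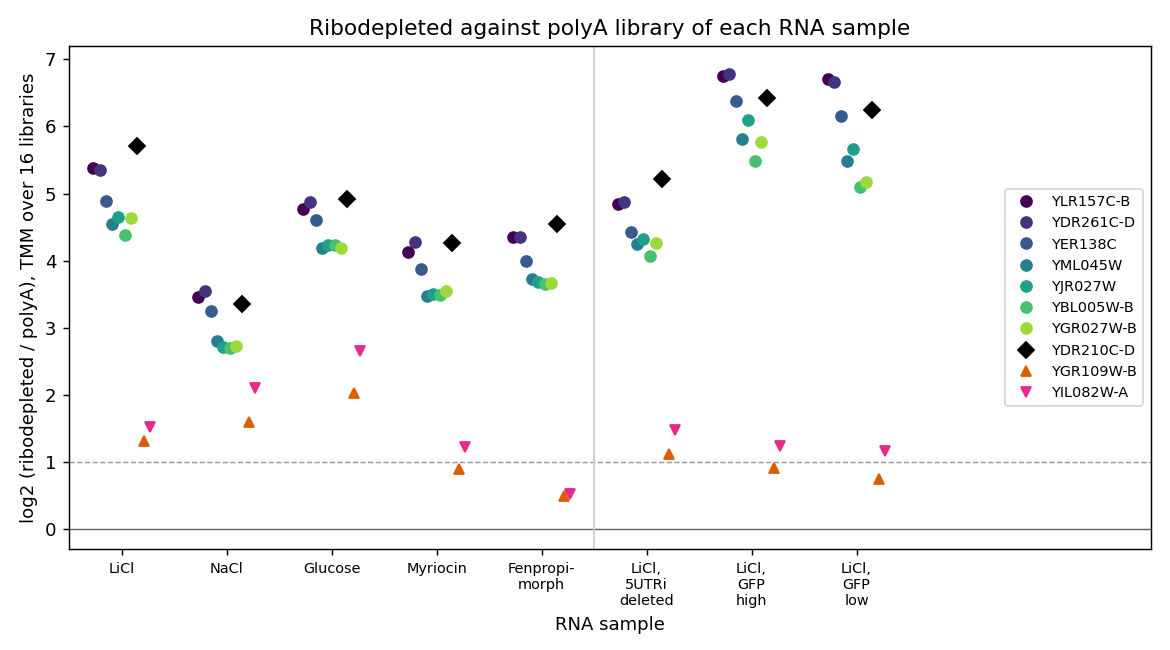
Log2 ratio of the ribodepleted to the polyA library of each RNA sample for the 10 frames, with TMM sizes over all 16 libraries, 1 point per frame and sample and a dashed line at 2-fold. The Ty1 frames run from 2.70 in NaCl to 6.78 in GFP-high cells, the 2 Ty3 frames (triangles) from 0.49 in fenpropimorph to 2.66 in glucose.

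The copies also differed in where along the element the counts lay. For each element the count on the Gag frame was subtracted from that on the Gag-Pol frame, and the remainder per kilobase, the Pol part, was divided by the Gag count per kilobase. The ratio stood out in YDR210C-D, where the ribodepleted ratio was lowest in glucose at 8.73, had a median of 12.5 and was highest in LiCl and the deletion strain at 15.3. In its polyA libraries the ratio ran from 1.03 in GFP-low cells, with a median of 3.24, to 4.26 in myriocin. The ribodepleted and polyA values of this frame do not overlap, nor do those of YLR157C-B, YJR027W and YGR027W-B.

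The other copies did not all shift the same way between library types. The median ratio was 2.01 in polyA and 0.687 in ribodepleted libraries for YGR027W-B, 1.50 and 0.542 for YJR027W, and 2.75 and 1.20 for YBL005W-B. It was 2.82 and 2.40 for YDR261C-D, 1.34 and 1.08 for YML045W, and 0.838 and 0.745 for YER138C. For YLR157C-B it was higher in ribodepleted libraries, at 2.24 and 3.51. Among the Ty3 frames it was 0.732 and 1.61 for YGR109W-B and 0.543 and 1.11 for YIL082W-A. Across samples, GFP-low cells had the lowest polyA ratio for 6 of the 10 members and myriocin the highest for 6. How far shared reads shift these ratios was not tested, and the 2 frames with no unique window, YER138C and YGR027W-B, have no value of their own copy.

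**Figure D5:**
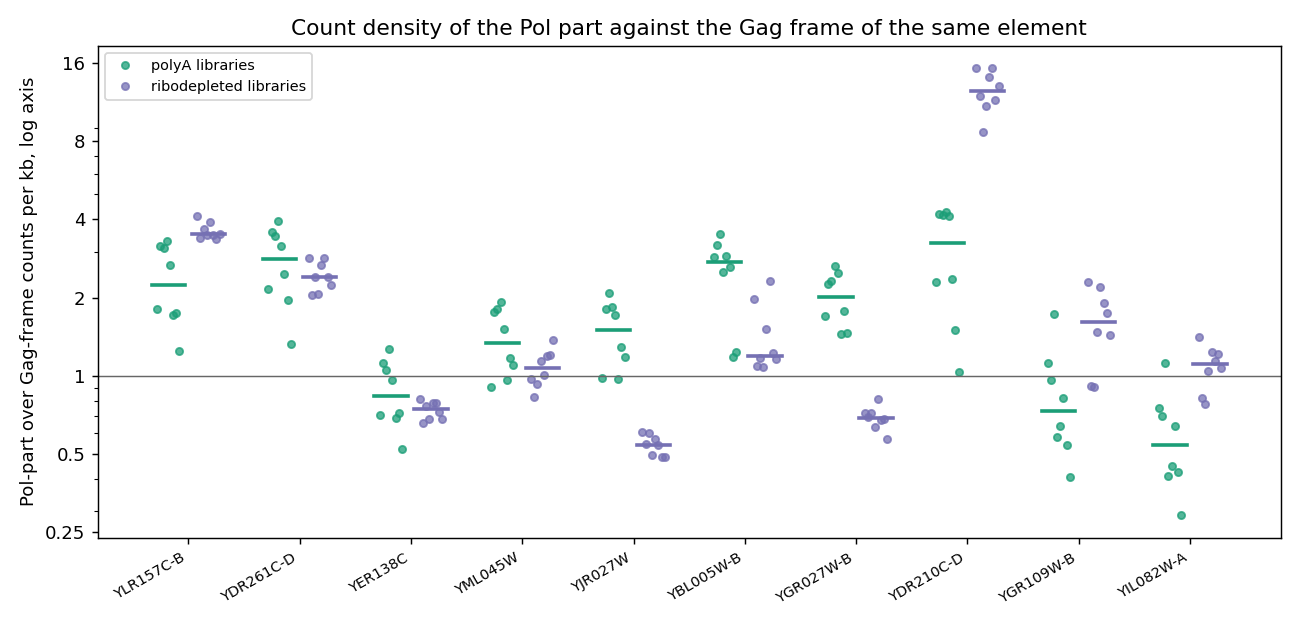
Counts per kilobase of the Pol part over those of the Gag frame of the same element (log axis, line at equal density) for the 10 frames, 8 libraries of each type as points and their medians as bars. YDR210C-D stands highest, at 8.73 to 15.3 in ribodepleted libraries, and YJR027W and YGR027W-B lie below 1 in ribodepleted and near or above 1 in polyA libraries.

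The shares of single copies in the Ty1 counts differed between library types. Most windows of these frames are not unique, and how far the placing of shared reads moves the shares was not tested. Of the counts of the 8 Ty1 members, YLR157C-B took 23.7 to 24.6% in ribodepleted and 15.9 to 21.0% in polyA libraries, or 19.6 to 21.0% without the sorted cells. YBL005W-B, the Ty1 member with most unique sequence, took at most 5.69% in ribodepleted and 6.61 to 10.2% in polyA libraries. YML045W took 9.56 to 11.8% and 13.9 to 16.3%, and YJR027W 7.43 to 8.50% and 9.89 to 10.9%. Relative to their size, the shares of YML045W and YJR027W did not vary less in ribodepleted libraries. Those of the other Ty1 members did, over all 8 RNA samples. In polyA, the lowest share of YLR157C-B and the highest of YBL005W-B were in GFP-low cells.

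Ty frames outside the membership were read in the same comparison. In ribodepleted NaCl against LiCl, 21 of the 21 other Ty1 Gag-Pol frames and 26 of the 31 Ty1 Gag frames were at least 2-fold lower, with medians of −1.42 and −1.26 beside −0.03 over all genes, of which 22.6% were as much lower. The lower ribodepleted counts were not particular to Ty1, since 4 of 5 Ty4 frames were at least 2-fold lower too, with a median of −1.01 and 0 of 5 above 0. Those 5 frames lie in 3 elements, so they are not independent. The 10 Ty2 Gag-Pol frames had a ribodepleted median of 0.41, with 0 of 10 past 2-fold, and a polyA median of 1.55, with 10 of 10 at least 2-fold higher, as 18.3% of all genes were. In polyA the Ty1 Gag frames had a median of −0.16 beside 0.42 for the other Ty1 Gag-Pol frames, and 7 of 31 against 21 of 21 were above 0.

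Known regulators of Ty expression were read from lists, whose members are given by counts and medians. Over the 4 stressors against LiCl, 1 to 2 of 8 transcriptional activators were at least 2-fold higher in polyA and 0 to 1 in ribodepleted libraries, with 0 to 1 and 0 lower, and the list medians were −0.06 to 0.30 and −0.08 to 0.37. The medians over all genes were −0.03 to 0.02 and −0.04 to −0.02. Of all genes, 11.9 to 18.3% were at least 2-fold higher and 13.2 to 21.1% lower in polyA, and 13.6 to 20.5% higher and 12.7 to 22.6% lower in ribodepleted libraries, and the counts of the 5 lists are to be read against these shares. STE12, which encodes the activator of pheromone and filamentation genes, was the highest of them in NaCl, with 6188 against 2057 polyA counts (log2 1.97, interval 1.89 to 2.04) and 4497 against 1749 ribodepleted counts (1.54, 1.46 to 1.62). The lowest were MCM1, a MADS-box factor, at −0.65 in polyA and TYE7, a factor of glycolytic genes, at −0.84 in ribodepleted libraries.

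Of the 10 genes of the MAPK pathway upstream of Ste12, 0 to 1 were at least 2-fold higher and 0 to 1 lower in either library type over these comparisons, with medians of −0.42 to 0.18 in polyA and −0.31 to 0.27 in ribodepleted libraries. STE2, the alpha-factor receptor, was highest in NaCl at 1.32 and 1.45, and STE11, a kinase of the cascade, lowest at −0.96 and −1.09. Of the 10 SAGA and SWI/SNF genes, whose products open chromatin at Ty1 and other promoters, 0 were at least 2-fold higher and 0 to 1 lower, with medians of 0.02 to 0.29 and −0.02 to 0.25. Their extremes in NaCl were SNF6 at −0.72 and −1.06, SNF2 at 0.74 in polyA and SWI3 at 0.49 in ribodepleted libraries.

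Among 12 repressors of Ty1 transcription or mobility, 1 to 4 were at least 2-fold higher and 1 to 2 lower in polyA, with 1 to 2 and 1 in ribodepleted libraries, and medians of 0.13 to 0.69 and 0.02 to 0.14. ROX1, which encodes a repressor of hypoxic genes, was at −2.05 and −2.00 in NaCl, and RTT107, a scaffold of DNA repair, at 1.51 and 1.80. The 9 RNA and integration cofactors had 0 to 3 at least 2-fold higher in polyA and 1 to 5 in ribodepleted libraries, and 0 lower, with medians of 0.44 to 0.87 and 0.66 to 1.01. KAP123, an importin, was highest in NaCl at 1.83 and 2.67, and DHH1, a decapping activator, at 0.04 in polyA and DBR1, the lariat debranching enzyme, at 0.11 in ribodepleted libraries were lowest. In the deletion and the sorted-cell comparisons no gene of these 5 lists passed 2-fold. The list medians ran from −0.28 to 0.10 in the former and from −0.04 to 0.16 in the latter.

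The genes outside Ty elements whose pattern was most like the median of the 7 frames (without YDR210C-D) were ranked by Pearson's r over the 8 RNA samples, averaged over both library types, among 6320 genes. They were YRO2, a plasma membrane protein gene (r of 0.75 in polyA and 0.84 in ribodepleted libraries), NDJ1, a meiotic telomere gene (0.84 and 0.74), PHO87, a phosphate transporter gene (0.70 and 0.88), YDL129W (0.83 and 0.75) and SER3 of serine synthesis (0.80 and 0.78). For the Ty3 frames they were KAR5, needed for nuclear fusion in mating (0.94 and 0.89), HSC82, an Hsp90 chaperone (0.83 and 0.96), FIG2, a mating adhesin (0.88 and 0.91), IRR1 of cohesin (0.97 and 0.81) and CFT1 of mRNA 3′ end cleavage (0.94 and 0.81). Genes overlapping a Ty element or a long terminal repeat were left out, but genes beside one were not. NDJ1 is YOL104C, by its systematic name a neighbour of the Ty1 frames YOL103W-A and YOL103W-B. The 8 points share their library sizes and the split between strains, and the top of so many genes is high by selection. With the 5 wild-type samples alone, 0 of the 5 genes of either list stayed among the top 5.

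The 300 bases from 250 before to 50 after each start were searched on both strands for the Ste12 motif TGAAACA and the Tec1 motifs CATTCT or CATTCC. Neither motif contains the other, though their ends can share letters. TGAAACA was in the windows of YML045W and YBL005W-B, and in 7.29% of 6696 CDS windows. CATTCT or CATTCC was in those of 8 members, all except YDR261C-D and YDR210C-D, and in 28.5% of all windows. Sequence further inside the frames was not searched, so a window without a match does not mean a copy without a site.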

How the data were processed

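PolyA and ribodepleted libraries of 8 RNA samples were sequenced as paired reads of 100 bp. The deposited values are raw read counts per CDS that the authors made with cutadapt, HISAT2 and featureCounts on R64. The submitters' processing notes give no tool versions, and the settings for strand, read pairs and reads with several matches are not given in the sources used here. The members, gene lists and tests were chosen with earlier results of these data known. Counts were compared as log2 ratios with a pseudocount of 0.5 and TMM effective library sizes (edgeR 4.0.16, R 4.3.3) over the 8 libraries of a type, or over all 16 for ribodepleted against polyA. Genes with a mean of at least 10 reads were kept. A gene was called apart at 2-fold, and 95% intervals cover counting error only. With 1 library per group no test was run and no p-value is given. Alternatives were total-count scaling, DESeq2 1.42.0 size factors, TMM without Ty frames, a pseudocount of 1, no filter, a threshold of 1.5-fold, halved counts, unique windows and the wild-type samples alone. The log2 ratio was tested on simulated Poisson counts, scaled by total counts and centred on their median. TMM sizes and reads shared between copies were not part of that test. Named were all members, the highest and lowest gene of each regulator list in NaCl (activators, MAPK pathway, SAGA and SWI/SNF, repressors, cofactors), the 5 genes most like each family with a mean of at least 50 reads, and the strain markers. Sequences were read from the R64 genome from RefSeq. Python 3.11.15 with numpy 2.4.6, pandas 2.3.3 and matplotlib 3.10.9 was used.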

Additional observations from a re-analysis of the deposited data

How the results depend on the processing

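The median of the 7 frames kept its sign in all 12 comparisons under total-count scaling, DESeq2 size factors and TMM without Ty frames, but of its 72 values under alternatives 35 moved by more than the counting error and 37 did not. Under total-count scaling it went from 0.49 to 0.08 in NaCl and from 0.13 to 0.01 in fenpropimorph, both in polyA. This scaling moved the median log2 difference of all genes to −0.43 in NaCl and −0.32 in myriocin in polyA, and to 0.34 in NaCl and 0.28 in fenpropimorph in ribodepleted libraries. Of 72 counts of members past the threshold under alternatives, 65 stayed within 1.5 times the reported count. With total-count scaling 1 member rather than 2 passed in glucose and 0 rather than 4 in myriocin, both in polyA. TMM without Ty frames gave 1 rather than 0 in ribodepleted fenpropimorph. A threshold of 1.5-fold gave 2 members in NaCl and 8 in myriocin in polyA, and 1 in myriocin and 10 in fenpropimorph in ribodepleted libraries. Between library types, total-count scaling gave a median log2 ratio of 3.10 rather than 4.29 for the 7 frames and 0.12 rather than 1.19 for Ty3. Halving the counts, as if both mates had been counted, widened the interval of YIL082W-A in ribodepleted NaCl to 0.115. Dividing by unique windows gave no value for YER138C and YGR027W-B, and since reads were not limited to those windows the other levels under it are not comparable. No paired analysis was possible because the groups compared share fewer than 2 replicate numbers, and no replicate could be left out. The ribodepleted against polyA ratios are taken within each RNA sample and were not tested, since ribodepleted counts chose the members.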

Other observations

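Ty4, a low-copy family with 5 counted frames, had its highest levels in fenpropimorph. In ribodepleted libraries 5 of 5 Ty4 frames were at least 2-fold higher in fenpropimorph than in LiCl, with a median log2 difference of 2.91, and in polyA libraries 4 of 5 were, with a median of 1.16, beside 13.6% and 11.9% of all genes. The family took 0.228% of the ribodepleted CDS counts there, against 0.0260% in LiCl. In polyA libraries 5 of 5 Ty4 frames were at least 2-fold lower in NaCl and in myriocin, with medians of −1.36 and −1.26, beside 21.1% of all genes in NaCl and 996 of 6640 genes in myriocin. In ribodepleted libraries 4 of 5 were in NaCl, with a median of −1.01, and 0 of 5 in myriocin, with a median of −0.52. The 5 Ty4 frames lie in 3 elements and are not 5 independent measurements. Unique windows made up 3.40% of YHL009W-B and 2.42% of YPL060C-A, but 44.8% of YJL113W.

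The Gag-Pol frames of Ty2, the family closest to Ty1, were also higher in polyA libraries under several stressors. The Ty2 Gag frames changed less, with median polyA levels of 41.1 RPKM in LiCl, 45.7 in glucose and 53.7 in myriocin. Of the 10 Ty2 Gag-Pol frames, 9 were at least 2-fold higher in myriocin and 6 in glucose than in LiCl, with median log2 differences of 1.26 and 1.01, beside 14.7% and 16.2% of all genes, while the ribodepleted medians were 0.69 and 0.83 with 0 of 10 past 2-fold. These frames share reads among themselves, and with 1 library per group these values have no replicate check.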
